A study of Mus musculus with 12 samples.

Results

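The enzymes of mitochondrial fatty acid oxidation and ketogenesis were examined as 29 genes listed by name, matched to the gene names of the deposited tables, out of 54532 genes counted in each library. The list covers long-chain and medium-chain fatty acid activation (4 and 3 genes), the carnitine shuttle (5), the acyl-CoA dehydrogenases (5), the later steps of the β-oxidation cycle (5), the auxiliary enzymes for unsaturated fatty acids (2), electron transfer (3) and ketone body enzymes (2).

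Fatty acids are joined to coenzyme A, carried into the mitochondrial matrix as carnitine esters and shortened by repeated rounds of dehydrogenation, hydration, oxidation and thiolysis. The electrons pass to the respiratory chain through electron transfer flavoprotein, and in hepatocytes much of the acetyl-CoA becomes ketone bodies that other organs burn. In liver the nuclear receptor PPARα is the best known activator of these genes. PPARγ, its relative, is known chiefly for lipid storage, and binds DNA together with RXR at a direct repeat of the half-site AGGTCA spaced by a single base (DR1).

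Liver RNA came from male PPARγ flox/flox mice injected at 8 weeks of age with an adeno-associated virus of serotype 8. The virus carried Cre recombinase (KO) or eGFP (WT) under the TBG promoter, which is active in hepatocytes, so other liver cells keep the floxed alleles intact. Mice of every group, WT included, had floxed alleles, a virus and fast-food diet (FFD), a diet with 21% fat by weight, 34% sucrose and 0.2% cholesterol given with glucose and fructose in the drinking water. The diet lasted 2 or 5 months. There were 3 libraries for every combination of genotype and time (12 altogether), and no animals on ordinary diet are analysed here.

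Libraries held 16367775 to 27452284 counts, of which the 29 genes took 0.79% to 0.994%. The labels call the libraries of a group repeats without saying that each is a separate animal, so p-values measure the spread between these libraries. Over the 5000 most abundant genes, WT replicate 1 at 2 months lay farthest from its group, with a median gap of 0.125 on the log2 scale. WT replicate 1 at 5 months followed at 0.115. Over the 29 genes the median signed gap of WT replicate 1 at 2 months was 0.04. It was 0.16 for KO replicate 3 at 2 months and for WT replicate 1 at 5 months. Pparg, the gene targeted by Cre, was not lower in the libraries labelled KO. After 2 months it had 38.8, 41.4 and 37.6 normalized CPM (counts divided by the TMM-scaled library size) in WT and 50.4, 66.5 and 52.0 in the libraries labelled KO. After 5 months it had 36.9, 41.4 and 37.1 in WT against 86.5, 92.9 and 75.0, so the groups did not overlap at either time. Its log2 difference was 0.52 ± 0.107 (SE, edgeR adjusted p = 0.0309) and 1.15 ± 0.0847 (adjusted p = 2.57e-06). The call at 2 months was lost without WT replicate 2 or 3 or any KO replicate (adjusted p from 0.0574 to 0.117). The counts are per gene and do not separate the floxed exons, so they do not check the deletion, and directions for KO follow the labels.

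The 10 hepatocyte markers, all detected, summed to 60800 to 72100 CPM in WT and 79300 to 92400 in the libraries labelled KO at 2 months, and to 59600 to 64000 and 79900 to 91200 at 5 months. Most of each sum was Alb, whose means in WT and KO were 44900 and 57700 at 2 months and 36900 and 57100 at 5 months. At 2 months all 10 had a log2 fold change above 0 and 1 was called, against 3.56% of all genes. At 5 months 8 were above 0 and 2 below, and 2 were called, against 18.4%. The 8 stellate cell markers summed to 570 to 722 against 430 to 446 at 2 months and 627 to 775 against 489 to 557 at 5 months. Of the 8, 7 had a log2 fold change below 0 at 5 months. The means of Col1a1, Col3a1 and Dcn at that time were 83.9, 175 and 296 in WT and 43.1, 91.8 and 233 in KO. Those of Lrat, Reln and Des were 52.8, 73.1 and 6.68 in WT and 50.1, 72.2 and 6.84 in KO. The 10 macrophage markers summed to 414 to 550 against 456 to 517 at 2 months and 1160 to 1300 against 544 to 716 at 5 months. The 4 adipocyte markers summed to 3.6 to 32.7 against 0 to 0.057 at 2 months and to 6.16 to 7.23 against 0 at 5 months, nearly all of it Cfd, while Adipoq, Lep and Plin1 had between 0 and 2 counts in any library. The sums above were apart between genotypes, except that of macrophages at 2 months, which overlapped. Endothelial sums were 268 to 328 against 283 to 312 at 2 months and 231 to 241 against 209 to 220 at 5 months. Cholangiocyte sums were 99.9 to 181 against 67.5 to 87.8, then 137 to 280 against 208 to 249. Erythroid sums overlapped at both times, and lymphocyte and neutrophil sums reached at most 10.1 CPM. The part of cell types in the values of the 29 genes was not tested. In bulk tissue, fewer cells of a type and less RNA per cell cannot be told apart.

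Levels of the genes differed widely. Per kilobase of gene model, Acaa2, the mitochondrial 3-ketoacyl-CoA thiolase, was the most abundant at 526 CPM per kb (mean of 3 WT libraries at 2 months). Cpt1a, the rate-controlling carnitine palmitoyltransferase of liver, followed at 204, and Acat1, the mitochondrial acetoacetyl-CoA thiolase, at 146. At the low end, Acsm3 reached 18.1, Acsl4 15.6 and Acsl3 9.31 CPM per kb. This order depends on the length of the gene models, 1515 bases for Acaa2 and 10483 for Acsl1. Without division by length Acsl1 was the highest, at a mean of 1100 CPM (105 per kb), against 877 for Cpt1a and 797 for Acaa2. Cpt1b, the muscle isoform of Cpt1a, had 1 to 20 counts per library (0.104 CPM per kb) and was the only member that did not pass the filter on low counts, so 28 of 29 were tested in each comparison. The 4 skeletal muscle markers summed to 0.254 to 1.26 CPM. The sum over the 29 genes was 8580 to 9140 normalized CPM in WT and 7880 to 8960 in KO at 2 months, and 8100 to 8790 and 8160 to 8710 at 5 months. Those ranges overlapped between genotypes at both times.

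Sequence upstream of 4 genes is shown because Acsm3, Eci1 and Slc25a20 carried the lower values in KO and Cpt1a the largest change over time in WT, all described after it. Each run is the 250 bases before the RefSeq transcript start (GRCm38.p6), read 5′ to 3′ on the gene's own strand, and capitals mark the half-site AGGTCA or its reverse complement TGACCT.

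Acsm3, chr7:119760673-119760922, plus strand: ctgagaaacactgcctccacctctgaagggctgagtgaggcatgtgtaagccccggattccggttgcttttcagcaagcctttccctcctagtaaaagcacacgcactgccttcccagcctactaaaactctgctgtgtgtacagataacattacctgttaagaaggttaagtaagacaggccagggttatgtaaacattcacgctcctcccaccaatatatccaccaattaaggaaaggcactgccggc

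Eci1, chr17:24426433-24426682, plus strand: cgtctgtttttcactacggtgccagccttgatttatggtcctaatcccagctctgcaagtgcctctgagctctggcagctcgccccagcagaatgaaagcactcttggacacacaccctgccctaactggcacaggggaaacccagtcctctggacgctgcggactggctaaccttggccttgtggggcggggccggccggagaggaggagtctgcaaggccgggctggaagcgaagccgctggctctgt

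Slc25a20, chr9:108661886-108662135, plus strand: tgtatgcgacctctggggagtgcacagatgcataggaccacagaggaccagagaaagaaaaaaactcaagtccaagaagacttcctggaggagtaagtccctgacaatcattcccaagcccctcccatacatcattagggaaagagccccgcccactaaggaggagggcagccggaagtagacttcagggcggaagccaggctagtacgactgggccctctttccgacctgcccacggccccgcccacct

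Cpt1a, chr19:3323051-3323300, plus strand: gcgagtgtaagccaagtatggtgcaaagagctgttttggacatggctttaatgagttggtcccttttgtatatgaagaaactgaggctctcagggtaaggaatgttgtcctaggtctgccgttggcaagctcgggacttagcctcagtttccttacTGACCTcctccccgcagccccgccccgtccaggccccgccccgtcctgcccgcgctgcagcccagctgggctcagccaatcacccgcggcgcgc

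Acsm3, Eci1 and Slc25a20 had no intact half-site in these bases, and Cpt1a had 1, on the opposite strand. Over windows of 300 bases (250 before the start and 50 after it), 24 of the 29 genes had a RefSeq promoter to search, on both strands. The half-site AGGTCA lay in 5 of the 24, those of Acsm1, Cpt1a, Acadvl, Acadm and Echs1, against 18.1% of 27025 genes. The DR1 pattern, AGGTCA and again AGGTCA with any base N between them, lay with at most 2 mismatches in 3 of the 24, against 4.4% of all genes. The 3 are shown with 30 bases each, the match in capitals, which for Echs1 includes its half-site.

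Echs1, chr7:140116483-140116512, minus strand: gcccgctcAGGTCACGGGTCCaccccttaa

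Etfa, chr9:55512299-55512328, minus strand: gcacacccTTACCTTTGCCCTactcccaag

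Slc25a20, chr9:108662134-108662163, plus strand: ctgaatgtAGGTGAAAGGTCGgcggagccg

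The match of Slc25a20 began 6 bases after the transcript start, whereas those of Echs1 and Etfa lay 83 and 77 bases before theirs. Of these genes, Slc25a20 was lower in KO at 5 months, whereas no difference between genotypes passed the test for Echs1 or Etfa. The pattern CAAAGTCCA of HNF4α was in none of the 24 windows, against 0.555% of all genes, and TCAAGGTCA of the estrogen-related receptors was in none, against 0.466%. A match describes letters only and shows no binding.

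At 2 months, loss of hepatocyte PPARγ was examined by comparing KO with WT libraries. Acsm3, a medium-chain acyl-CoA synthetase, and Eci1, the isomerase that moves double bonds of unsaturated fatty acids into place, were lower in the libraries labelled KO. No other member passed the test, so 2 of 28 were called, both lower. Among all 14573 genes tested, 3.56% were called (1.78% higher and 1.78% lower). The groups did not overlap for 11 members (9 lower, 2 higher), against 24.1% of all genes (12% lower, 12.1% higher). The median log2 fold change of the members was -0.10, with 23 below 0 and 5 above, and the median of all genes was 0. With a library left out the members' median ran from -0.17 (without KO replicate 3) to -0.07 (without WT replicate 2). Without WT replicate 1, the library farthest from its group over the 5000 most abundant genes, 6 members were called, against 10.6% of all genes. Without WT replicate 2 or 3 the count was 1, against 0.788% and 1.01%, and without KO replicate 1 or 2 it was 0, against 0.892% and 1.59%.

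At 5 months calls among the members went both ways and came to about the share of all genes. Acsl5 and Acsm1 were higher in the libraries labelled KO and Acsm3, Slc25a20 and Eci1 were lower, 5 of 28 in all, where 18.4% of 14138 genes were called (8.9% higher, 9.51% lower). Scaling by library size only, without TMM, gave 1 higher and 7 lower, against 19.7% of all genes, and 3 members were called without KO replicate 3, against 11.9%. The groups did not overlap for 11 members (4 higher, 7 lower), against 34.8% of all genes (15.8% higher, 19% lower). The median log2 fold change was 0.02, with 15 members above 0 and 13 below (from -0.02 to 0.05 with a library left out), and the median of all genes was -0.01. An unadjusted p below 0.05 was reached by 8 members at each time, against 18.9% and 30.7% of all genes. With a 1.3-fold change added, the cut-off of the study's pathway analysis, 3 members were called at 2 months and 2 at 5 months, against 11% and 17% of all genes.

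**Figure D1:**
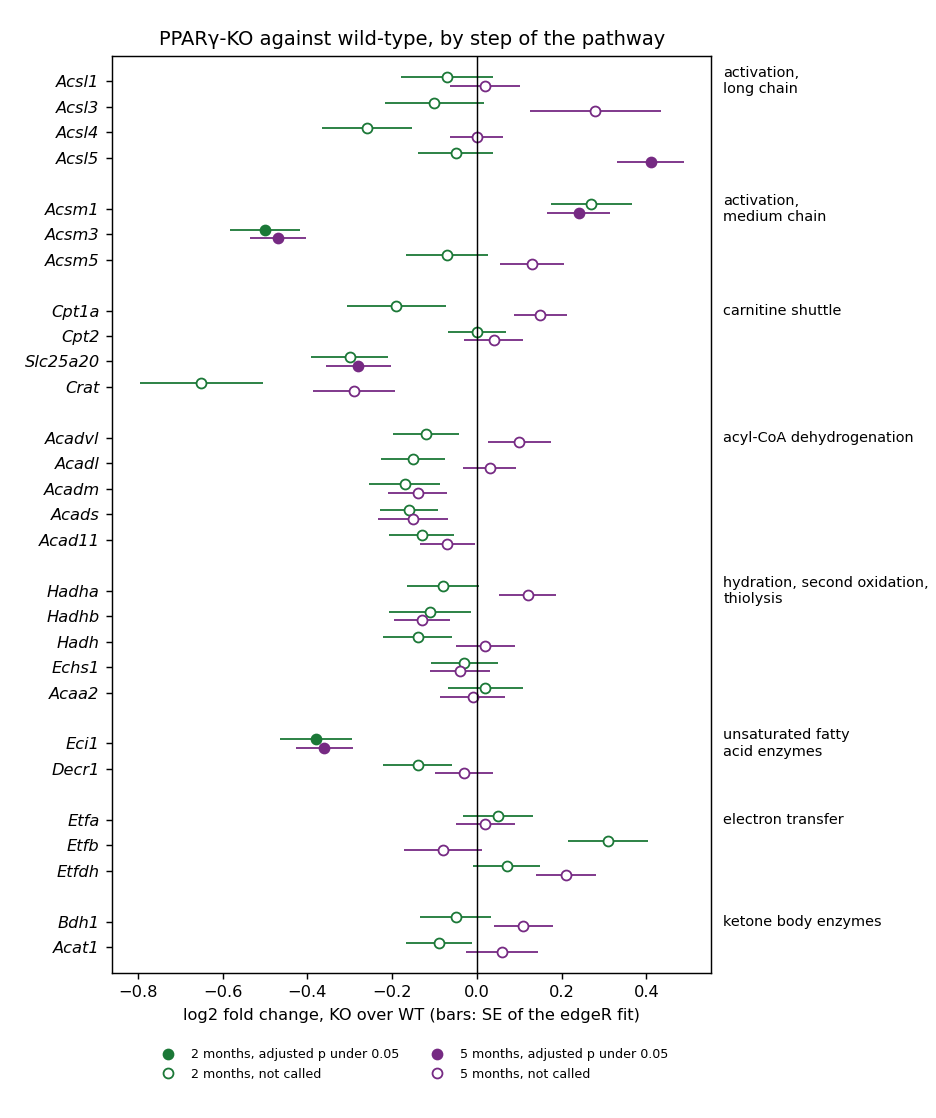
Log2 fold change of KO over WT (x axis) for the 28 tested members, ordered by step (y axis), at 2 months (green) and 5 months (purple), with bars for the SE of the edgeR fit and filled points where the adjusted p is under 0.05. Acsm3 and Eci1 are filled at both times on the lower side, and Acsl5 at 0.41 is the highest point at 5 months.

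Acsm3 (ENSMUSG00000030935, mm10 chr7:119760923-119787513, plus strand) had 98.6, 83.9 and 86.0 normalized CPM in WT and 60.5, 61.2 and 67.8 in KO after 2 months of diet. The later libraries had 75.6, 68.6 and 68.1 in WT and 50.1, 49.3 and 52.4 in KO. Every KO library lay below every WT library of its time. The log2 fold change was -0.50 ± 0.0836 at 2 months (adjusted p = 0.0148) and -0.47 ± 0.0661 at 5 months (adjusted p = 0.000333). The call at 2 months was lost without KO replicate 1 (adjusted p = 0.0801) or KO replicate 2 (adjusted p = 0.0527). Acsm3 shares 18835 bases with Eri2 on the opposite strand, whose counts came to 8.28% of those of Acsm3.

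Eci1 (ENSMUSG00000024132, chr17:24426683-24439316, plus strand) had 138, 148 and 142 CPM in WT and 104, 101 and 123 in KO at the earlier time. At the later time it had 194, 172 and 177 in WT and 144, 142 and 132 in KO. Again no library of KO reached the lowest WT library of its time. The log2 fold change was -0.38 ± 0.085 (adjusted p = 0.0381) and -0.36 ± 0.0667 (adjusted p = 0.00223). The call at 2 months was lost without WT replicate 2 or 3 (adjusted p = 0.153 and 0.114) or without KO replicate 1 or 2 (adjusted p = 0.166 and 0.132). Decr1, the dienoyl-CoA reductase that acts on the same fatty acids, had log2 values of -0.14 (adjusted p = 0.402) and -0.03 (adjusted p = 0.823).

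Slc25a20 (ENSMUSG00000032602, chr9:108662088-108684641, plus strand) encodes the carnitine-acylcarnitine translocase of the inner membrane. Its 3 WT libraries held 117, 139 and 121 CPM at 2 months and its KO libraries 98.1, 96.5 and 112. At 5 months the values were 132, 111 and 115 in WT and 101, 102 and 90.7 in KO. The groups did not overlap at either time. The log2 fold change was -0.30 ± 0.0904 at 2 months, which missed the threshold (adjusted p = 0.107; 0.0309 without WT replicate 1), and -0.28 ± 0.0763 at 5 months (adjusted p = 0.0234; 0.115 without KO replicate 3).

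Crat, carnitine acetyltransferase, had the lowest log2 fold change of any member at 2 months. WT libraries held 112, 153 and 134 CPM and KO libraries 82.5, 71.9 and 99.8 at that time. WT libraries held 92.4, 87.8 and 89.8 CPM and KO libraries 61.0, 82.4 and 76.5 at 5 months. The groups did not overlap at either time, but the spread was wide and neither difference passed the test. The log2 fold change was -0.65 ± 0.146 (adjusted p = 0.0565) and -0.29 ± 0.0965 (adjusted p = 0.0621). Without WT replicate 1 or KO replicate 3 at 2 months the adjusted p was 0.0162 and 0.039, without KO replicate 2 at 5 months it was 0.0169, and DESeq2 gave 0.000857 and 0.0488 for the 2 times.

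The other shuttle genes had small differences. Cpt1a had a log2 fold change of -0.19 ± 0.117 at 2 months (adjusted p = 0.436) and 0.15 ± 0.0631 at 5 months (adjusted p = 0.125). Its KO libraries at 5 months, 462, 456 and 479 CPM, lay above its WT libraries, 422, 425 and 422. Cpt2, the inner membrane transferase, had log2 values of 0 and 0.04.

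Acsl5, a long-chain acyl-CoA synthetase of mitochondria and endoplasmic reticulum, did not differ detectably at 2 months, with 411, 465 and 477 CPM in WT and 441, 405 and 460 in KO. At 5 months it had 381, 435 and 429 in WT and 520, 593 and 531 in KO, with no overlap. The log2 fold change was -0.05 ± 0.0889 (adjusted p = 0.815) and 0.41 ± 0.0792 (adjusted p = 0.00299). Acsl5 (ENSMUSG00000024981, chr19:55251938-55297720, plus strand) shares 26430 bases with Zdhhc6 on the opposite strand, whose counts came to 13.4% of its own. Whether counting used the strand is not given in the sources used here, so reads of such partners cannot be told apart.

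Acsm1, another medium-chain synthetase, moved opposite to Acsm3. At 2 months WT had 247, 196 and 213 CPM and KO 280, 248 and 261. At 5 months WT had 242, 217 and 217 CPM and KO 242, 271 and 281. The groups were apart at 2 months and touched at 5 months. The log2 fold change was 0.27 ± 0.0959 (adjusted p = 0.17) and 0.24 ± 0.075 (adjusted p = 0.0405). Without WT replicate 1 the value at 2 months passed (adjusted p = 0.0115), and at 5 months the call was lost without WT replicate 2 or 3 (adjusted p = 0.155 and 0.153) or KO replicate 2 or 3 (adjusted p = 0.111 and 0.159).

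**Figure D2:**
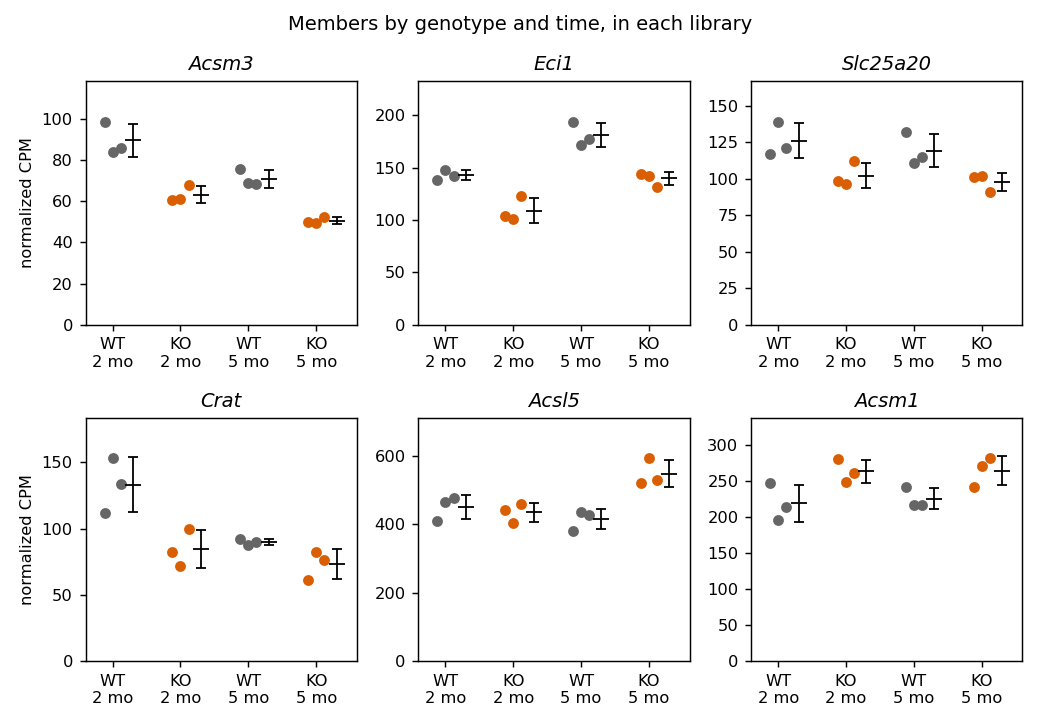
Normalized CPM (y axis, from 0) of 6 members in each of the 12 libraries, by genotype and time (x axis), with the mean and SD of 3 libraries beside the points. KO libraries of Acsm3, Eci1, Slc25a20 and Crat lie below WT at both times, and those of Acsl5 lie above WT only at 5 months.

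The remaining activation genes did not pass the test in either comparison. Acsl1, the chief long-chain synthetase of liver, had log2 fold changes of -0.07 (adjusted p = 0.789) and 0.02 (adjusted p = 0.892). Acsl3 and Acsl4 lay between -0.26 and 0.28 and Acsm5 at -0.07 and 0.13.

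None of the 5 acyl-CoA dehydrogenases, which begin each round of oxidation for very long, long, medium and short chains and, for Acad11, hydroxylated acids, passed the test. At 2 months all 5 had log2 fold changes below 0, from -0.17 for Acadm to -0.12 for Acadvl, and at 5 months they ran from -0.15 for Acads to 0.10 for Acadvl. Acadm, the medium-chain enzyme, had 405, 417 and 414 CPM in WT and 334, 365 and 397 in KO at 2 months. At 5 months WT had 508, 456 and 445 CPM and KO 432, 425 and 411. Its groups were apart both times, with adjusted p of 0.301 and 0.19.

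No enzyme of the later steps of the cycle passed the test. Hadha and Hadhb, the subunits of the trifunctional protein, and Hadh, Echs1 and Acaa2 had log2 fold changes between -0.14 and 0.02 at 2 months and between -0.13 and 0.12 at 5 months. Hadha and Hadhb lay on opposite sides at 5 months, at 0.12 (adjusted p = 0.27) and -0.13 (adjusted p = 0.189).

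No electron transfer gene passed the test. Etfb, the β subunit of the flavoprotein, had 25.5, 24.4 and 24.6 CPM in WT and 29.7, 28.2 and 34.6 in KO at 2 months, a log2 difference of 0.31 ± 0.0946 (adjusted p = 0.104). At 5 months it had 38.6, 35.1 and 31.5 against 33.5, 36.0 and 29.1, which overlapped (-0.08, adjusted p = 0.616). Etfb shares 13673 bases with Gm45233 on the same strand, which had 5 counts over all libraries, and how reads common to both were counted is not given in the sources used here. Etfdh, which hands the electrons to ubiquinone, had 320, 285 and 276 CPM in WT and 341, 346 and 327 in KO at 5 months, a log2 difference of 0.21 ± 0.0702 (adjusted p = 0.0538; 0.00351 without WT replicate 1). The ketone body enzymes Bdh1, which interconverts acetoacetate and β-hydroxybutyrate, and Acat1 lay between -0.09 and 0.11 in both comparisons.

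Other genes of the pathway were read from a list of 24, of which 21 were tested. At 2 months 1 was called, Acad12, which was lower, where 3.56% of all genes were called, and the median log2 fold change was -0.28. At 5 months 8 were called, 1 higher and 7 lower, where 18.4% of all genes were, with a median of -0.18.

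Acad12, an acyl-CoA dehydrogenase family member, had 20.2, 25.3 and 22.4 CPM in WT and 10.8, 12.9 and 11.8 in KO at 2 months. At 5 months WT had 24.9, 21.9 and 22.2 CPM and KO 17.1, 15.9 and 16.0. No KO library reached the lowest WT library of its time. Acad12 fell by 0.94 on the log2 scale at 2 months (adjusted p = 0.00402) and by 0.48 at 5 months (adjusted p = 0.00208). Oxct1, the enzyme that extrahepatic tissues use to burn ketone bodies, is scarce in liver, with 10.9, 15.0 and 16.9 CPM in WT and 8.11, 9.33 and 6.81 in KO at 5 months (log2 fold change -0.81, adjusted p = 0.00627).

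Acacb makes the malonyl-CoA that inhibits Cpt1a. It was the only called gene of that list that was higher, with 73.5, 79.5 and 82.8 CPM in WT and 165, 230 and 226 in KO at 5 months (log2 fold change 1.41 ± 0.125, adjusted p = 0.000126). At 2 months its libraries overlapped, at 190, 294 and 299 against 304, 178 and 381 (0.14, adjusted p = 0.872). Acot9, a thioesterase, and Hsd17b10, a dehydrogenase of short-chain and branched-chain acyl-CoA, fell by 0.48 (adjusted p = 0.0113) and 0.36 (adjusted p = 0.00207) at 5 months. The call of Acot9 was lost without WT replicate 2 or 3 or KO replicate 3 (adjusted p from 0.0518 to 0.0684). The malonyl-CoA decarboxylase Mlycd fell by 0.32 (adjusted p = 0.00534), Acot13 by 0.32 (adjusted p = 0.0123) and Decr2 by 0.31 (adjusted p = 0.0198). The call of Acot13 was lost without WT or KO replicate 3 (adjusted p = 0.0755 and 0.0628). That of Decr2 was lost without KO replicate 2 (adjusted p = 0.0837).

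Peroxisomal β-oxidation shortens very long chains before they reach mitochondria. Of its 15 genes 7 were called at 2 months (6 lower, 1 higher) and 7 at 5 months (5 lower, 2 higher), where 3.56% and 18.4% of all genes were called, and the other 8 did not pass at each time. The medians were -0.11 and -0.13. Of 13 genes for general mitochondrial content (citrate cycle enzymes, import and chaperone proteins), 0 were called at 2 months by edgeR, with 3 at an unadjusted p below 0.05, and 1 at 5 months, against the same shares of all genes, with medians of -0.06 and 0.06. Ppara had log2 fold changes of -0.09 (adjusted p = 0.723) and 0.45 ± 0.0756 (adjusted p = 0.00125). Ppargc1a, a coactivator of mitochondrial gene expression, had 0.48 (adjusted p = 0.241) and 1.32 ± 0.104 (adjusted p = 4.65e-06).

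The change in the KO effect between the times was tested as a difference in a fit of all 12 libraries. By edgeR 0 of 28 members passed, where 1.57% of 15127 genes did (0.661% higher, 0.912% lower), 3 had an unadjusted p below 0.05, and DESeq2 called 1, Acsl5. The differences of those 3 were 0.45 ± 0.119 for Acsl5 (adjusted p = 0.0736; 0.0146 without WT replicate 1 at 2 months), -0.41 ± 0.139 for Etfb (adjusted p = 0.164) and 0.33 ± 0.133 for Cpt1a (adjusted p = 0.256). An unadjusted p below 0.05 was reached by 14.9% of all genes, and with a 1.3-fold change added 2 members and 10.3% of all genes passed. The members' median was 0.09 (0.05 to 0.14 with a library left out, the highest without KO replicate 3 at 2 months or WT replicate 1 at 5 months), with 21 above 0 and 7 below. Acsm3, Eci1 and Slc25a20, the genes lower in KO, had differences of 0.02, 0.01 and 0.01 with SE of 0.107, 0.111 and 0.126.

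Each genotype was also compared between the times. Called members of the activation steps and the carnitine shuttle were mostly lower at 5 months, and most called enzymes of the later steps were higher. In WT, 14 of 28 members were called between 5 and 2 months (8 higher, 6 lower), where 46.4% of 14491 genes were (23.8% higher, 22.7% lower). In KO, 17 were called (12 higher, 5 lower), where 44.9% of 14478 genes were (22.7% higher, 22.2% lower). Scaling by library size only gave 5 higher and 9 lower in WT and 9 higher and 6 lower in KO, against 45.7% and 44.7% of all genes. An unadjusted p below 0.05 was reached by 17 members in each genotype, against 53.7% and 52.5%, and with a 1.3-fold change added by 6 and 7 members against 41.1% and 36%. The WT count was 9 without replicate 3 of either time, against 39.9% (2 months) and 36.1% (5 months). Groups did not overlap for 17 members in WT (10 higher, 7 lower), against 56.7% of all genes (28.8% higher, 28% lower). In KO they did not overlap for 16 (11 higher, 5 lower), against 55.6% of all genes (28.2% higher, 27.5% lower). The members' medians were 0.01 and 0.09 on the log2 scale, and those of all genes -0.01 in each. These comparisons use the same libraries as those between genotypes. Time on diet, age and any difference in how libraries of the 2 times were prepared cannot be told apart.

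**Figure D3:**
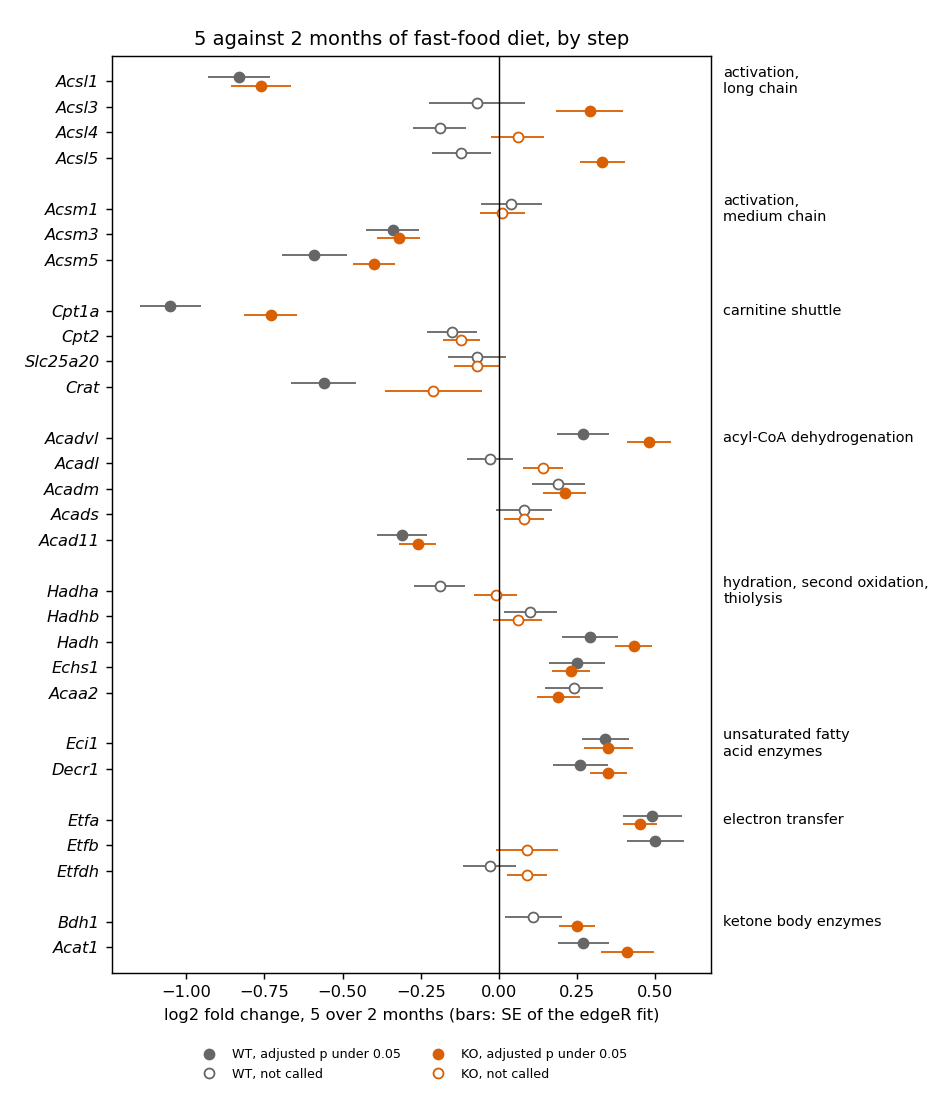
Log2 fold change of 5 over 2 months (x axis) for the 28 tested members by step (y axis), in WT (grey) and KO (orange), with bars for the SE of the edgeR fit and filled points where the adjusted p is under 0.05. Cpt1a, Acsl1, Acsm5, Acsm3 and Acad11 are filled on the lower side in both genotypes, and Acadvl, Hadh, Echs1, Eci1, Decr1, Etfa and Acat1 on the higher side.

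Of the 4 shuttle genes tested, Cpt1a and Crat were called in WT and Cpt1a in KO, all lower at 5 months. Cpt1a (ENSMUSG00000024900, chr19:3323301-3385732, plus strand) had 888, 967 and 775 CPM in WT at 2 months, which became 422, 425 and 422 at 5 months. In KO the values were 754, 680 and 878, then 462, 456 and 479. The times did not overlap in either genotype. The log2 change was -1.05 ± 0.0986 in WT (adjusted p = 1.78e-05), a ratio of 0.482, and -0.73 ± 0.0853 in KO (adjusted p = 6.24e-05), a ratio of 0.604.

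Acsl1 (ENSMUSG00000018796, chr8:46471037-46536051, plus strand) fell likewise. Its values were 1090, 1150 and 1060 CPM at 2 months in WT, then 693, 586 and 575, and 1050, 903 and 1200 in KO, then 662, 605 and 600. The lowest library at 2 months stayed above the highest at 5 months in each genotype, and the log2 change was -0.83 ± 0.0987 (adjusted p = 7.83e-05) and -0.76 ± 0.0949 (adjusted p = 0.000136). Of the other long-chain synthetases, Acsl5 rose in KO by 0.33 ± 0.0717 (adjusted p = 0.00332) and had -0.12 ± 0.0932 in WT (adjusted p = 0.32). Acsl3 rose in KO by 0.29 (adjusted p = 0.0477), a call lost without KO replicate 1 or 2 of either time (adjusted p from 0.123 to 0.16) and with library size scaling, and shares 13475 bases with Utp14b on the same strand.

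Of the 3 medium-chain synthetases, Acsm5 and Acsm3 fell in both genotypes, and Acsm1 was not called, at 0.04 in WT (adjusted p = 0.755) and 0.01 in KO (adjusted p = 0.96). Acsm5 went from 204, 162 and 162 CPM to 125, 110 and 115 in WT and from 173, 166 and 163 to 118, 125 and 138 in KO. The log2 change was -0.59 ± 0.103 (adjusted p = 0.000903) and -0.40 ± 0.0676 (adjusted p = 0.000674). Acsm3 changed by -0.34 ± 0.0839 (adjusted p = 0.00696) and -0.32 ± 0.0684 (adjusted p = 0.00276), so its highest level was in WT at 2 months and its lowest in KO at 5 months. Crat fell in WT by 0.56 (adjusted p = 0.00126) and had -0.21 ± 0.155 in KO (adjusted p = 0.303), where its libraries overlapped. Cpt2 and Slc25a20 had log2 values between -0.15 and -0.07, with no call.

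From the dehydrogenases onward, most called members rose. Among the dehydrogenases, Acadvl, the very long-chain enzyme, went from 196, 179 and 185 CPM to 246, 216 and 214 in WT and from 167, 163 and 186 to 248, 249 and 222 in KO. The times were apart in both genotypes, with log2 changes of 0.27 ± 0.083 (adjusted p = 0.0217) and 0.48 ± 0.0697 (adjusted p = 0.000253). The WT call was lost without WT replicate 2 or 3 at 2 months (adjusted p = 0.0741 and 0.069) or replicate 1 at 5 months (adjusted p = 0.0572). Acad11 was the exception, with -0.31 ± 0.0806 (adjusted p = 0.00931) and -0.26 ± 0.058 (adjusted p = 0.00348). Its WT call was lost without WT replicate 2 or 3 at 5 months (adjusted p = 0.0633 and 0.0605).

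Hadh, which oxidizes medium- and short-chain hydroxyacyl-CoA, had 373, 415 and 366 CPM in WT at 2 months, then 509, 447 and 459, and 336, 345 and 368 in KO, then 484, 478 and 457. All libraries at 5 months exceeded those at 2 months of the same genotype. The log2 change was 0.29 ± 0.0895 (adjusted p = 0.0205) and 0.43 ± 0.06 (adjusted p = 0.000174). The WT call was lost without WT replicate 3 at 2 months (adjusted p = 0.0866) or without replicate 1 or 3 at 5 months (adjusted p = 0.0521 and 0.0527). Echs1, the short-chain hydratase, rose by 0.25 and 0.23 (adjusted p = 0.0377 and 0.0094), the WT call being lost without any WT library but replicate 1 at 2 months (adjusted p from 0.0644 to 0.153). Acaa2 had 0.24 in WT (adjusted p = 0.0603) and 0.19 in KO (adjusted p = 0.0402), the KO call being lost without KO replicate 1 or 2 of either time (adjusted p from 0.0787 to 0.135). Hadha and Hadhb were not called, with log2 values of -0.19 (adjusted p = 0.0778) and 0.10 in WT. In 4 alternatives Hadha passed in WT on the lower side (adjusted p from 0.0253 to 0.0495). These were library size scaling, a replicate block, a joint fit of the 12 libraries, and leaving out WT replicate 1 at 2 months. Acaa2 passed in WT on the higher side in 5 alternatives (adjusted p from 0.0102 to 0.0378). Scaling by library size only removed the WT calls of Hadh, Echs1 and Decr1 and the KO calls of Acsl3, Acadm and Acaa2.

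Both auxiliary enzymes rose. Eci1 changed by 0.34 ± 0.0759 in WT (adjusted p = 0.00391) and 0.35 ± 0.0775 in KO (adjusted p = 0.0035), so the KO libraries at 5 months, at 132 to 144 CPM, were near the WT libraries at 2 months, at 138 to 148. Decr1 changed by 0.26 (adjusted p = 0.0334) and 0.35 (adjusted p = 0.000678), and its WT call was lost without WT replicate 3 at 2 months or any WT replicate at 5 months (adjusted p from 0.0635 to 0.127).

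Etfa (ENSMUSG00000032314, chr9:55454508-55512243, minus strand), the α subunit of the flavoprotein, went from 288, 246 and 246 CPM to 398, 351 and 347 in WT and from 267, 264 and 278 to 369, 371 and 366 in KO. The times were well apart, with log2 changes of 0.49 ± 0.095 (adjusted p = 0.00178) and 0.45 ± 0.0545 (adjusted p = 7.31e-05). Etfb rose in WT by 0.50 ± 0.0918 (adjusted p = 0.00132) and had 0.09 ± 0.0988 in KO (adjusted p = 0.491). Of the ketone body enzymes, Acat1 rose by 0.27 in WT (adjusted p = 0.0167) and 0.41 in KO (adjusted p = 0.00239), and its WT call was lost without WT replicate 3 at 2 months (adjusted p = 0.0691) or replicate 2 or 3 at 5 months (adjusted p = 0.0652 and 0.0649). Bdh1 rose in KO by 0.25 ± 0.0575 (adjusted p = 0.00475) and had 0.11 ± 0.0907 in WT (adjusted p = 0.362). Acadm, called in KO only, changed by 0.19 in WT (adjusted p = 0.0859) and 0.21 in KO (adjusted p = 0.0307), the KO call being lost without KO replicate 1 or 2 of either time (adjusted p from 0.0657 to 0.138).

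**Figure D4:**
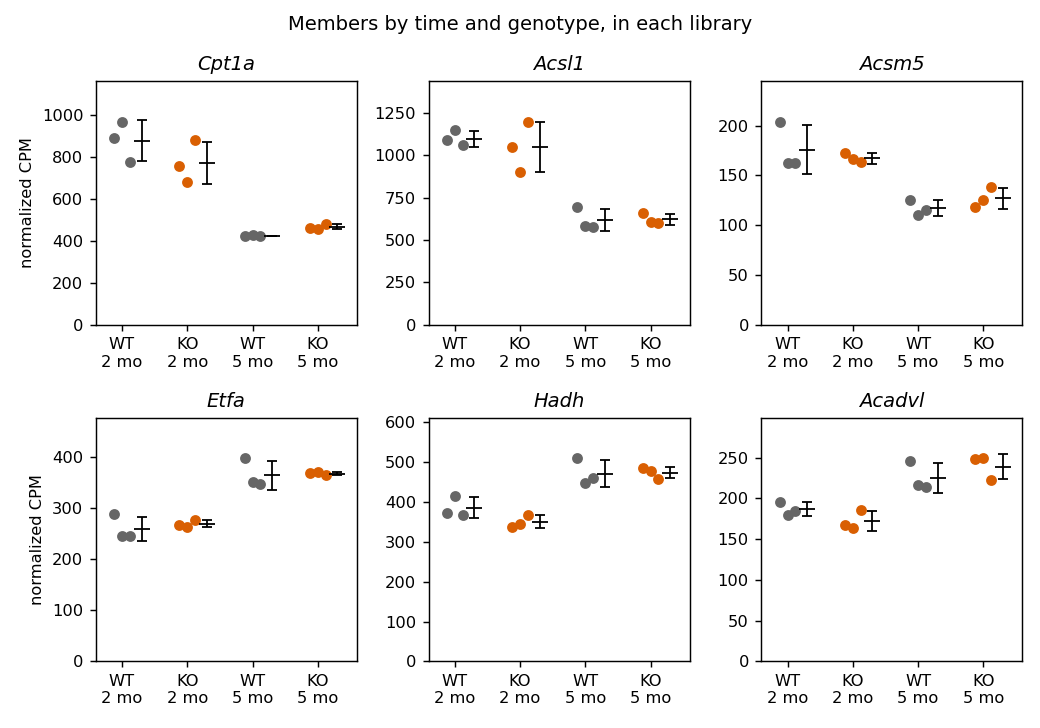
Normalized CPM (y axis, from 0) of 6 members in each of the 12 libraries, by genotype and time (x axis), with the mean and SD of 3 libraries beside the points. Cpt1a, Acsl1 and Acsm5 are lower at 5 months and Etfa, Hadh and Acadvl higher, with no overlap between the times in either genotype.

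Of 12 regulators of the pathway, 5 were called between the times in WT (2 higher, 3 lower) and 6 in KO (3 higher, 3 lower), with medians of -0.05 and 0.08, where 46.4% and 44.9% of all genes were called. Ppara, one of them, had 312, 311 and 282 CPM in WT at 2 months and 118, 101 and 101 at 5 months, a log2 change of -1.5 ± 0.089 (adjusted p = 2.28e-06). In KO it went from 302, 238 and 314 to 139, 140 and 155, a change of -0.98 ± 0.102 (adjusted p = 8.39e-05). Of 15 circadian clock genes, a list added after the members' values were seen, 14 were called in WT (3 higher, 11 lower) and 13 in KO (3 higher, 10 lower), against the same shares of all genes, with medians of -1.02 and -0.70. Between genotypes, 0 of the 15 were called at 2 months by edgeR, with 2 at an unadjusted p below 0.05, and 7 at 5 months, all higher, where 3.56% and 18.4% of all genes were called, with a median of 0.49 at 5 months. The hour at which livers were taken is not given in the sources used here, and the part of the clock in the members' values was not tested.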

How the data were processed

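Liver RNA was extracted with TRIzol, and Novogene prepared the libraries and sequenced them on an Illumina NovaSeq. The authors deposited raw read counts per gene, not normalized, aligned to mm10. The paper's methods name STAR as the aligner, and the submitters' processing notes name HISAT2 without a version. The counting program, the annotation release and the use of strand are not given in the sources used here. Uneven counting of overlapping genes could change single values, and 17 members overlap a gene with counts, 13 of them on the opposite strand. In 4 (Acsl3, Acsl5, Crat and Echs1) the partner had at least 10% of the member's counts.

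Each comparison was fitted on the counts of its own 6 libraries with edgeR 4.0.16 (filterByExpr, TMM scaling, robust quasi-likelihood F-test, two-sided) in R 4.3.3. The p-values of every tested gene entered the Benjamini-Hochberg adjustment, and a gene was called below 0.05. The difference of the KO effects was fitted on all 12 libraries with 4 group means. Values by library are CPM from 1 TMM scaling of the 12 libraries. SE is the size of the log2 fold change divided by the root of F. The method was tested on simulated counts in which 200 genes changed by 1.5 on the log2 scale. The members' changes were all smaller, so the simulation does not show how well changes of their size are found.

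The members and lists were chosen with earlier results of these data known. Members called between genotypes are given in every library. Other pathway genes are named where they were called between genotypes, with a limit of 8. Of the list first set for those genes, 2 are not reported here, and counts are over the other 24. Members given in full for the times, and the clock list, were chosen after their values were seen. The alternatives were DESeq2 1.42.0 as the test, scaling by its size factors or by library size only, testing genes without a filter or only those with 10 counts in each library, a block for the replicate number, a joint fit of the 12 libraries, leaving out each library, and an unadjusted p below 0.05 with a 1.3-fold change, the cut-offs of the study's pathway analysis. Replicate numbers come from the labels. Over the 5000 most abundant genes, deviations of same-numbered WT and KO libraries correlated at 0.22, 0.324 and 0.14 at 2 months. At 5 months the values were -0.0779, -0.0603 and -0.179. Differently numbered WT and KO libraries gave -0.274 to 0.114 at 2 months and -0.0518 to 0.148 at 5 months. Deviations were taken from group means, so high values for some pairs force low ones for others. Between the times, same-numbered libraries gave 0.238, 0.185 and 0.0191 in WT and -0.0376, 0.218 and -0.0199 in KO. Differently numbered ones gave -0.287 to 0.266 in WT and -0.177 to 0.223 in KO. Whether the numbers pair libraries is thus not known. No main fit used them, and the block was an alternative only. No library duplicated another of its group. The chi-square per gene was 2.44 between WT replicates 2 and 3 at 5 months, and 9.4 to 31.7 between the other replicates. Those 2 libraries were thus far closer than any other pair, and the spread of that WT group came largely from replicate 1. The p-values that use this group rest on that spread, and why the 2 were so close was not tested. Promoters come from RefSeq, GRCm38.p6, for 24 of the 29 genes. Cpt1b, Crat, Acaa2, Decr1 and Acat1 had none to search.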

Additional observations from a re-analysis of the deposited data

Results flagged for a closer look

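The KO effect differed between 5 and 2 months, by the edgeR test of the difference over all 12 libraries, for Crot and Pparg, related to the pathway but not among its 29. They were the only calls among the 15 peroxisomal genes, 12 regulators, 21 other pathway genes and 13 mitochondrial content genes tested. Of all genes 1.57% were called. Neither difference was followed under the alternatives. For Crot, the peroxisomal carnitine octanoyltransferase, the difference was -0.46 ± 0.108 on the log2 scale (adjusted p = 0.0423). Its KO effect was -0.11 (adjusted p = 0.553) at 2 months and -0.56 (adjusted p = 0.000192) at 5 months. Crot had 560, 529 and 505 normalized CPM in WT and 458, 523 and 500 in KO after 2 months, which overlapped, and 903, 881 and 871 in WT and 636, 557 and 598 in KO after 5 months, which did not. For Pparg, the gene targeted by Cre, the difference was 0.62 ± 0.145 (adjusted p = 0.0432), since the libraries labelled KO exceeded WT by more at 5 months than at 2 months.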

How the results depend on the processing

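Of 68 results for single genes, 65 kept their direction under every alternative. These results were chosen for a call or an unadjusted p below 0.05 in the main fit. Only Acsl1, Cpt1a and Pparg were included by name. Refits of the same libraries were therefore likely to keep their direction, and these counts do not measure robustness. Of 904 alternative values, 794 kept direction and side of the threshold, 73 lost a call, 31 gained one and 6 turned direction. The turned values were all near 0. Acsl1 at 2 months ran from -0.17 to 0.03 with a library left out, turning without KO replicate 2, and at 5 months from -0.03 to 0.11, turning without WT replicate 2 (-0.01), WT replicate 3 (-0.03) or KO replicate 1 (-0.02). With library size alone Acsl1 at 5 months was -0.04. The difference of the KO effects for Acsl1 ran from -0.01 to 0.18, turning without KO replicate 2 at 2 months.

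Members called at 2 months numbered 6 with no filter, where 5.95% of all genes were called, and 0 to 6 with a library left out, where 0.788% to 10.6% were. At 5 months they numbered 8 with library size alone (19.7% of all genes), 8 with no filter (11.3%), 2 by an unadjusted p with a 1.3-fold change (17%) and 3 to 6 with a library left out (11% to 21%). Between the times the unadjusted p with a 1.3-fold change gave 6 in WT (41.1%) and 7 in KO (36%), and leaving out a library gave 9 to 17 in WT (35.8% to 47%), 17 being without WT replicate 1 at 2 months. For the difference of the KO effects DESeq2 gave 1 (3.63%), no filter 1 (2.76%), the unadjusted p with a 1.3-fold change 2 (10.3%), and leaving out a library 0 to 1 (0.536% to 3.65%). With library size alone the members' median was -0.19 at 2 months and -0.07 between the times in WT, while that of all genes moved by 0.0824 and 0.0929 below 0. The median between the times in KO ran from 0.06 to 0.17 with a library left out, 0.17 being without KO replicate 3 at 2 months. The causes were not tested.

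With the replicate number as a block, 2 and 4 members were called between genotypes at 2 and 5 months, against 5.61% and 16.3% of all genes. Without the block those shares were 3.56% and 18.4%. Between the times 16 members were called in WT and 14 in KO, against 47.9% and 41.6%. For the difference 0 were called, against 1.71%. The block changed no call of a member at 2 months. At 5 months it removed that of Acsm1 (adjusted p = 0.082).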
